A study of Homo sapiens with 19 samples.

Results

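The genes described here encode histone-modifying enzymes and bromodomain proteins. They were chosen by name: protein-coding genes of GENCODE release 44 named KMT2, KMT5, KDM, KAT, HDAC, SETD, BRD, SIRT, PRMT or EHMT with a letter or number after it, together with EP300 and CREBBP, and without KDM1A, HDAC1 and HDAC2, the enzymes that the compound in this study inhibits. The rule gave 89 of 20007 protein-coding genes. By role, as read from the name, they were 21 lysine methyltransferases, 8 arginine methyltransferases, 10 acetyltransferases, 19 lysine demethylases, 9 classical deacetylases, 7 sirtuins and 8 bromodomain genes. The other 7 met the name pattern only. They were 6 katanin genes (KATNA1, KATNAL1 and KATNIP among them), which sever or regulate microtubules, and BRD3OS, which overlaps BRD3 on the opposite strand.

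All libraries came from Molm-13, an established acute myeloid leukaemia cell line known to carry a fusion of KMT2A with MLLT3, so that marks at KMT2A cannot be assigned to the normal or the rearranged allele. Cells were treated for 24 hours with Corin or with DMSO, the vehicle, each labelled as 0.1 µM, and 3 histone marks were mapped by CUT&RUN, in which an antibody directs a nuclease to cut out the marked chromatin. Each mark, H3K27ac, H3K4me2 and H3K4me3, had 2 Corin and 2 DMSO libraries with a peak list, 12 lists in all. The 7 other samples of the series (ATRA with Corin, LSD1 and IgG) were not analysed here. Whether the replicates came from separate cultures is not given in the labels, so the spread between them may be technical.

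Histone modification is set by enzymes that write, erase and read each mark. H3K27ac is placed mainly by EP300 and CREBBP at active promoters and enhancers and removed by deacetylases. H3K4 methylation is placed mainly by enzymes of the KMT2 and SETD1 families and removed by KDM1 and KDM5 demethylases. H3K4me3 sits close to the start of active genes and H3K4me2 extends further out on either side. Corin joins a deacetylase inhibitor to an LSD1 inhibitor and acts on the CoREST complex, which holds KDM1A (LSD1) with HDAC1 or HDAC2. The members asked about here are therefore mostly enzymes of the same kind that the compound does not target by design.

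The measure was the number of base pairs (bp) covered by peaks within 10 kb on either side of the gene's start, taken as the start of its Ensembl canonical transcript on the GRCh38 (hg38) build. A value is a length of peak, not a read count, so it grows both when a peak widens and when a new peak is called. With 2 libraries against 2, an exact permutation test cannot go below p = 0.333 (two-sided). Members are therefore described by whether both Corin libraries lay above, or below, both DMSO libraries, set beside the same share over all protein-coding genes that had a peak of that mark in the window. The limma linear model over all those genes, with Benjamini-Hochberg adjustment, gave the test for each gene. Members named beyond a rule based on role, level and size of difference were chosen after their values were seen.

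The Corin lists were longer than the DMSO lists for every mark. H3K27ac had 34424 and 30029 peaks in the Corin libraries against 17599 and 19995 in the DMSO libraries, H3K4me2 41152 and 40042 against 30896 and 32299, and H3K4me3 11757 and 11883 against 11104 and 11343. Values from lists cut to the same number of top-scoring peaks are given below as matched values. The number of reads behind each list is not given in the files used here beyond a stated minimum of 5000000 per library. Of 10 myeloid marker genes, 9 had an H3K4me3 peak at the start in all 4 lists, and none of 10 markers of other cell types had one in any.

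Promoter sequences show what kind of start these genes have. Of the 89 members, 81 were matched by symbol in a RefSeq promoter table (GRCh38.p14), as were 15345 genes in all. In the 250 bases before the start, the members had a median of 24 CpG dinucleotides and 66.4% G+C, against 17 and 62.4% over all matched genes. CpG-rich starts are bound through CXXC zinc fingers by several members themselves, among them KMT2A, KMT2B, KDM2A and KDM2B. The 4 starts below were chosen because the results turn on them. HDAC7 had the largest H3K27ac and H3K4me2 differences between treatments when all libraries were used. EP300 and CREBBP are the paired writers of H3K27ac, and KDM5A is an H3K4 demethylase gene with no peak in any list. Each is written 5′ to 3′ along the gene's strand, with CpG dinucleotides in capitals.

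HDAC7, chr12:47819904-47820153, minus strand: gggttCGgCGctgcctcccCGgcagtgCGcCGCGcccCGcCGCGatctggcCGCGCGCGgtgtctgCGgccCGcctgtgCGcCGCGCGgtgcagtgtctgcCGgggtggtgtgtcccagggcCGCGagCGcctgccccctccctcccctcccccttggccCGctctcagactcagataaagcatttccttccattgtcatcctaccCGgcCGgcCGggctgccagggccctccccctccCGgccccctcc

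EP300, chr22:41092342-41092591, plus strand: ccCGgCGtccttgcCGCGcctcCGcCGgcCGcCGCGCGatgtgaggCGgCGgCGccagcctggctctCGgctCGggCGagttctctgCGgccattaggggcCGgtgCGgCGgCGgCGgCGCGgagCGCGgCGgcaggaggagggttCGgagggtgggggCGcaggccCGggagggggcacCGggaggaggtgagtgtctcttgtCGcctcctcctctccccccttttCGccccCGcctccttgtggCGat

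CREBBP, chr16:3880714-3880963, minus strand: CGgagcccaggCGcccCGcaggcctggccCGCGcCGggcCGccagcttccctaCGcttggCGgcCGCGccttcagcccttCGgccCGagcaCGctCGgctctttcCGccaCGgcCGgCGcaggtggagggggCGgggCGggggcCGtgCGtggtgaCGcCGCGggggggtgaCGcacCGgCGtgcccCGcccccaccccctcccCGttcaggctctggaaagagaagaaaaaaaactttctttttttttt

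KDM5A, chr12:389321-389570, minus strand: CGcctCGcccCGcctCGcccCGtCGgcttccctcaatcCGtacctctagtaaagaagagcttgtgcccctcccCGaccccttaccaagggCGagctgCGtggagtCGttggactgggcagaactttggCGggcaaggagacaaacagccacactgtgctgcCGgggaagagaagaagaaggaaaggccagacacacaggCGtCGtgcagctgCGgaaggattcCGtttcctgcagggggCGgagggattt

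The window of HDAC7 held 28 CpG dinucleotides at 75.6% G+C, that of EP300 35 at 76.8%, that of CREBBP 31 at 72.4% and that of KDM5A 18 at 62%. KDM5A, at which no peak was called in any list, was thus near the median of all genes in CpG number. The Sp/KLF motif GGGCGG, searched on both strands, occurred 3 times in the CREBBP window, once in that of KDM5A and not in the other two. It was present in 65.4% of member windows and 56.7% of all windows. CACGTG (E-box) was found in 14.8% of member windows against 7.85%, CCGGAAG (ETS family) in 16.05% against 11.96%, the NRF1 motif in 11.1% against 7.70%, AANATGGC (YY1) in 4.94% against 3.59%, and CCAAT in 29.6% against 34.8%. These shares describe letters in the window only.

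Most members had marked starts in both treatments. An H3K4me3 peak overlapped the 1 kb on either side of the start in all 4 lists at 82 of 89 members (92.1%), against 48.4% of all protein-coding genes. For H3K4me2 this held at 80 members (89.9%, against 58.9%) and for H3K27ac at 45 (50.6%, against 25.8%). All 3 marks were present in all 12 lists at 44 members (49.4%, against 24.5%). Where the overlap had to cover at least 50% of that stretch, the counts were 52 for H3K4me3, 43 for H3K4me2 and 11 for H3K27ac (58.4%, 48.3% and 12.4%), against 27.97%, 32.1% and 5.36% of all genes.

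At the start, H3K27ac was called in only 1 to 3 of the 4 lists at 37 members, H3K4me2 at 4 (HDAC8, KDM3B and KMT2C among them) and H3K4me3 at 1 (HDAC8), which were 41.6%, 4.49% and 1.12% of members beside 19.7%, 4.76% and 4.01% of all genes. Other members lacked called peaks of 1 mark or of all. BRDT, the testis bromodomain gene, PRMT8, a brain arginine methyltransferase gene, the KDM4-type demethylase genes KDM4E and KDM4F, and KDM5A had 0 bp in the window in all 12 lists (5.62% of members, beside 28.1% of all genes). CREBBP and BRD3OS had H3K4me3 at the start in all 4 lists and no H3K27ac in any (2.25%, beside 5.62%). HDAC9, a class IIa deacetylase gene, had H3K4me2 at the start in all 4 lists and no H3K4me3 (1.12%, beside 8.02%). Its H3K4me2 values were 2263 and 1623 bp in DMSO and 2788 and 2105 bp in Corin, which overlap.

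Levels in the DMSO libraries varied widely among members. The median member had 586.5 bp under H3K27ac, 2392.5 bp under H3K4me2 and 1862 bp under H3K4me3, against 0, 1452 and 561 bp over all genes. Among the 9682 genes with H3K4me3 at the start in all 4 lists, the medians were 561, 2515 and 1569 bp, and for the 82 members in that set 625.25, 2435.5 and 1926.75 bp. Members with the most peak length in DMSO included the following. SETD1B, which encodes the catalytic subunit of an H3K4 methyltransferase complex, had the most H3K27ac, with 5862 and 5246 bp. SIRT7 had the most H3K4me2, with 11267 and 12117 bp, followed by SETD1B with 10249 and 11439 bp. BRD2, a BET bromodomain gene, had 7686 and 7767 bp of H3K4me3, the H3K27 demethylase gene KDM6B 6057 and 6849 bp, and the sirtuin gene SIRT7, whose window holds 2 other gene starts, 6905 and 7906 bp.

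**Figure D1:**
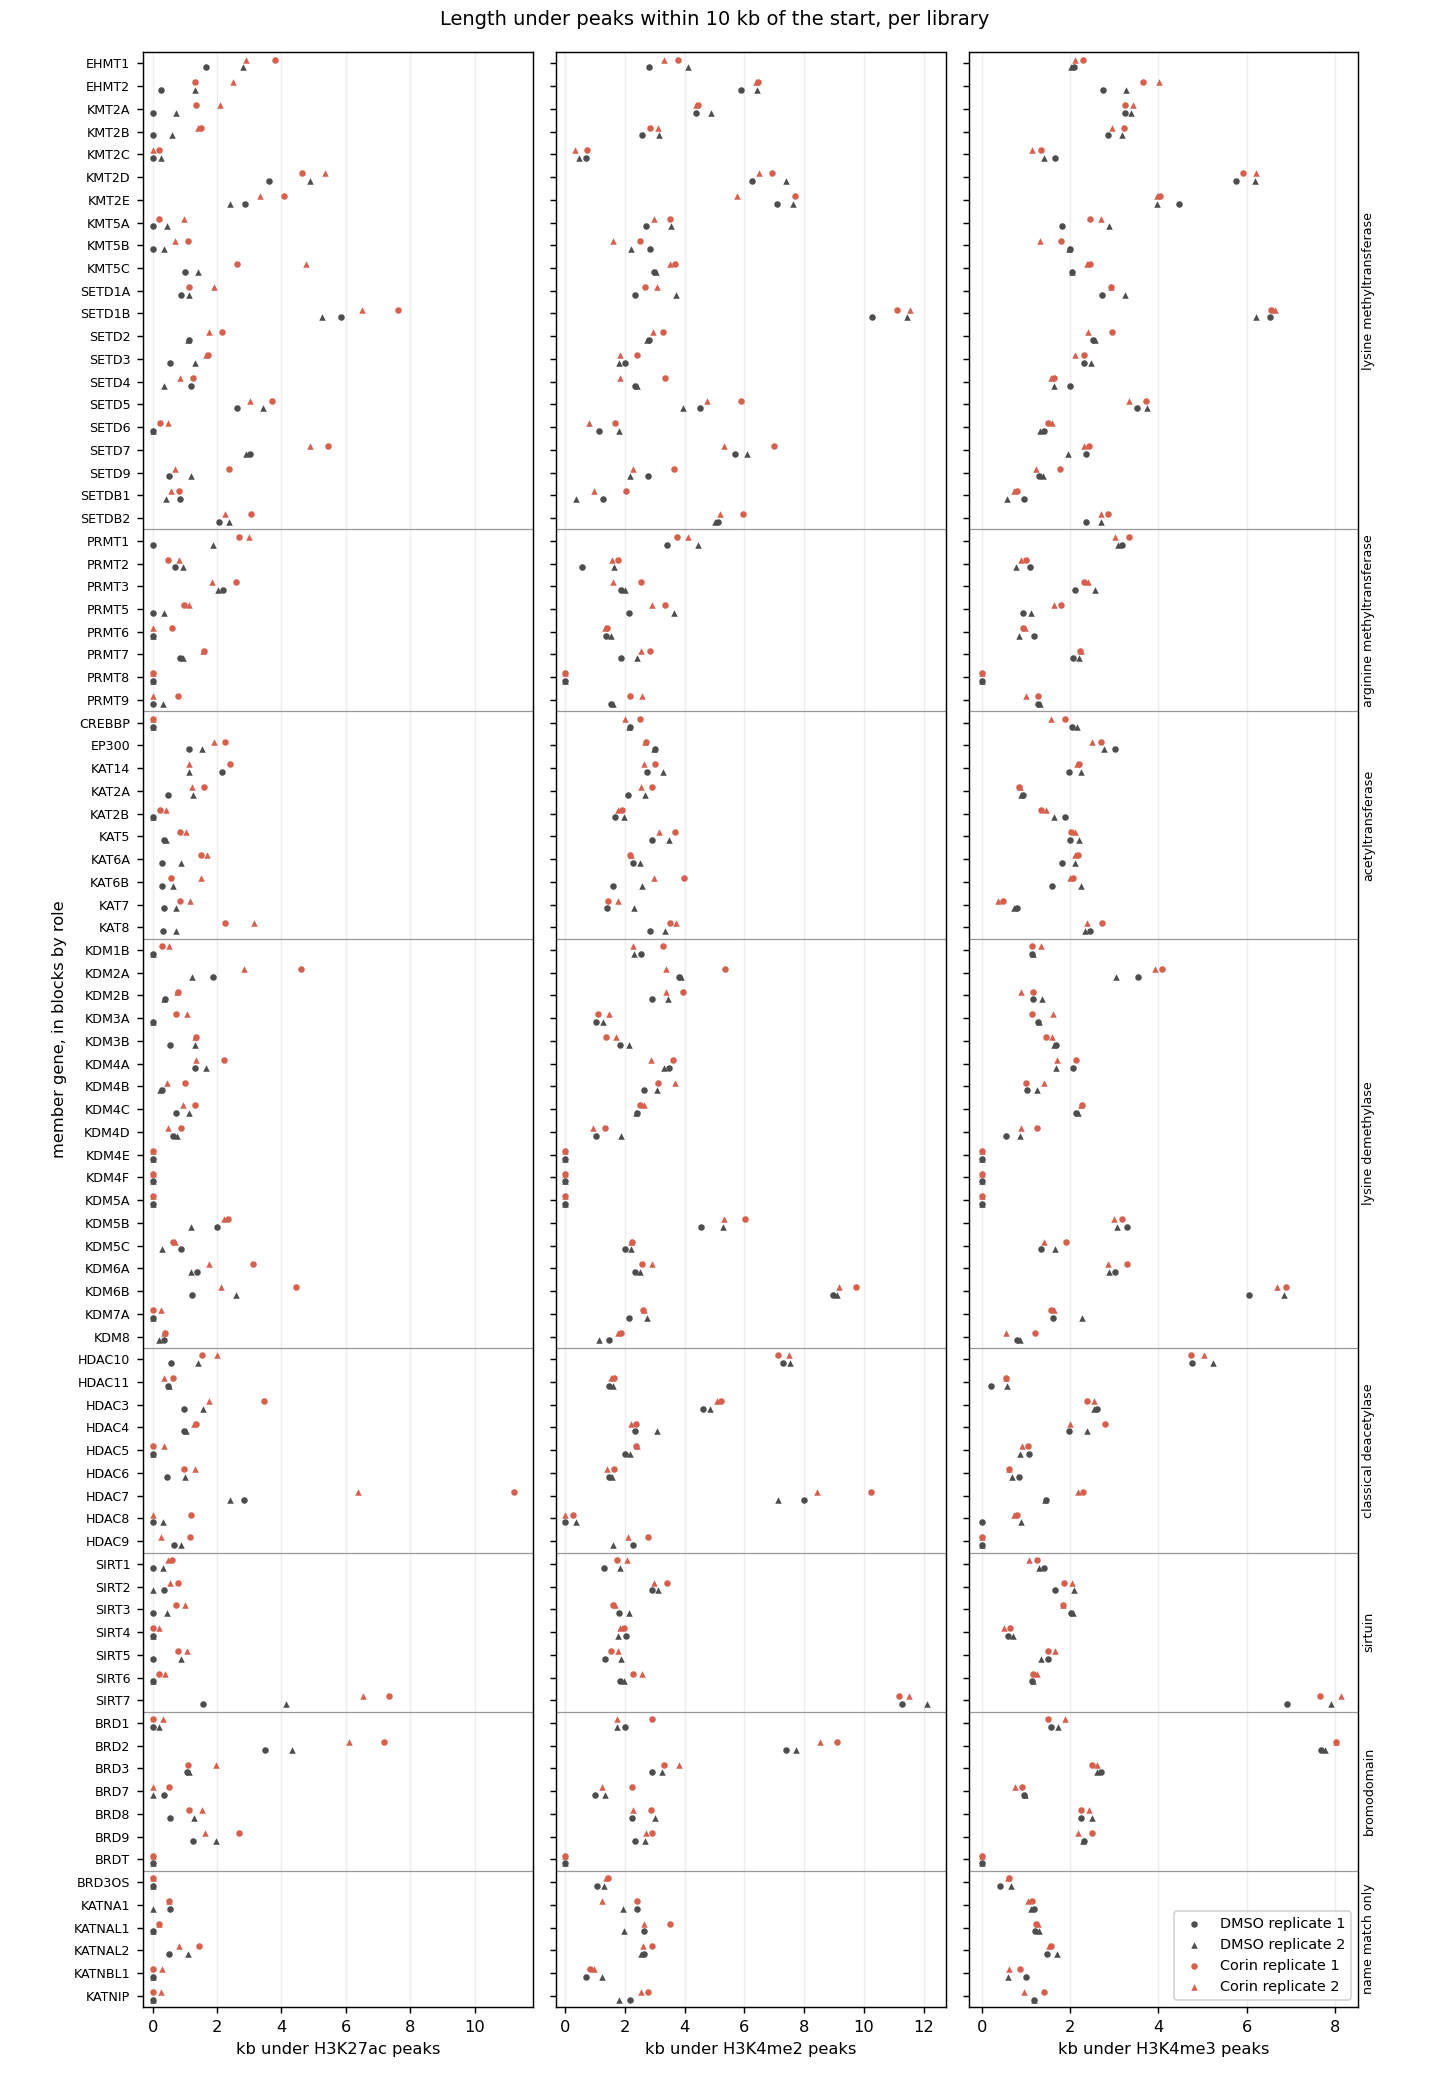
Length under peaks within 10 kb of the start (kb, x axis) for 86 of the 89 members (y axis, in blocks by role), one panel per mark. Each point is 1 library (grey DMSO, red Corin; circle replicate 1, triangle replicate 2). In the H3K27ac panel the red points of HDAC7, at 11234 and 6379 bp, lie furthest to the right of their grey points, while in the H3K4me3 panel red and grey points mostly lie together.

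H3K27ac was higher in both Corin libraries than in both DMSO libraries at 41 of 82 members with a peak (50%), and lower in both at none. Over all genes with an H3K27ac peak the shares were 54.6% and 0.591%, so the members' share of higher genes was close to the background. The median difference was 459 bp for members with a peak and 445 bp for all such genes. With matched peak numbers 25 of 76 members were higher and 3 lower (PRMT2, HDAC9 and HDAC11), beside 35.1% and 3.48% of all genes. In limma no member and no other gene passed an adjusted p of 0.05 (2448 genes had an unadjusted p under 0.05), and 15 members were higher and none lower at an unadjusted p under 0.05. The smallest adjusted p was 0.116, for KAT8. Without Corin replicate 1 or without Corin replicate 2, where the remaining Corin library is assumed to vary like the DMSO libraries, limma called 11 of 81 and 8 of 77 members, all higher, beside 10.8% and 12.7% of all genes tested.

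H3K4me2 was higher in both Corin libraries at 25 of 84 members (29.8%) and lower at 4 (4.76%), against 39.6% and 3.91% of all genes with a peak. With matched peak numbers 19 were higher and 9 lower, beside 31.2% and 7.73%. H3K4me3 was higher at 12 of 83 members (14.5%) and lower at 17 (20.5%), against 25.8% and 8.39%. The order of the H3K4me3 counts was thus reversed between members and all genes: more members were lower than higher, while more genes in all were higher than lower. This order held with matched peak numbers, where 10 members were higher and 20 lower beside 24.6% and 9.28% of all genes, and against the genes with H3K4me3 at the start in all 4 lists, of which 26.3% were higher and 8.77% lower. Over the gene body the counts were equal, with 15 of 84 members higher and 15 lower, beside 23.5% and 9.09% of all genes. The order of the member counts turned in 2 of the 4 settings that left out 1 H3K4me3 library. Without Corin replicate 2 there were 29 members higher and 23 lower, and without DMSO replicate 2 there were 36 and 26. Without Corin replicate 1 the counts were 21 and 30, and without DMSO replicate 1 they were 23 and 36. Among all genes, more were higher than lower in each of these settings, with lower shares of 18.7%, 18.5%, 25.4% and 26.6% in the same order, beside 27.7%, 31.3%, 36.1% and 43.4% of members. The difference between members and all genes was not tested. In limma no member passed for either mark, where 0.14% of genes passed for H3K4me2 and none for H3K4me3; at an unadjusted p under 0.05, 4 were higher and none lower for H3K4me2, and 5 higher and 2 lower for H3K4me3 (2008 and 776 genes in all), with smallest adjusted p of 0.234 and 0.386.

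**Figure D2:**
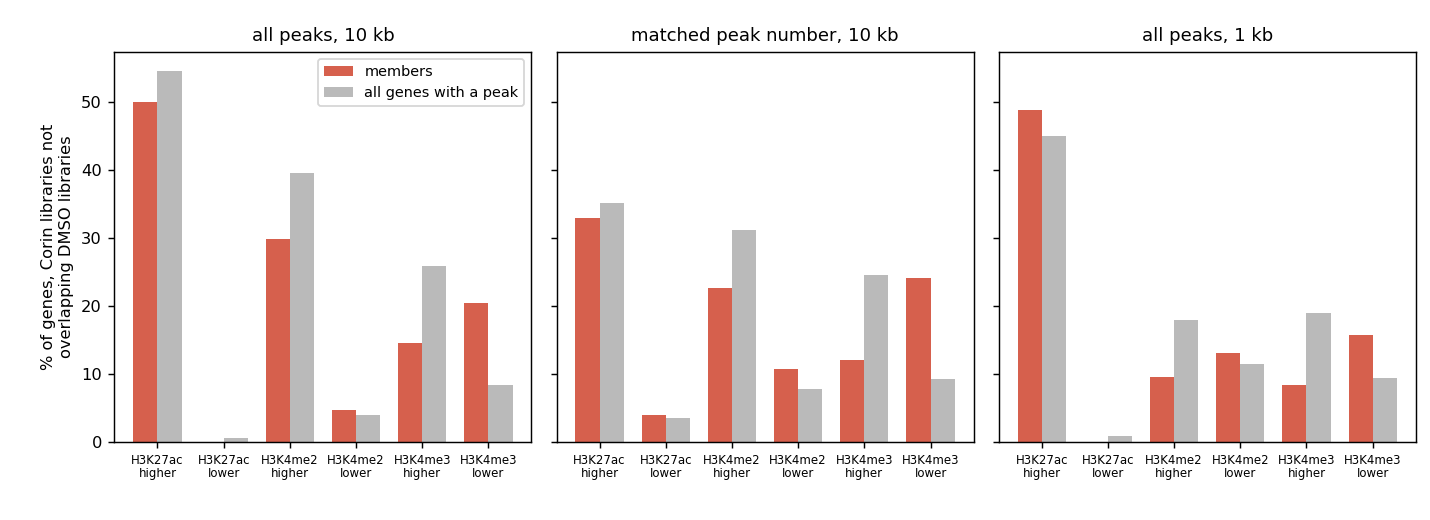
Share of genes (%, y axis) whose Corin libraries both lay above (higher) or both below (lower) the DMSO libraries, for each mark, in members (red) and in all genes with a peak of the mark in the window (grey). Panels show all peaks within 10 kb, matched peak numbers within 10 kb and all peaks within 1 kb; in each panel the members exceed all genes for H3K4me3 lower (20.5% against 8.39% in the first) and fall short for H3K4me3 higher.

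The groups by role were small, and their counts are set beside the shares over all genes with a peak of the mark. Acetyltransferases, the writers of acetyl marks, had H3K4me3 lower in both Corin libraries at 5 of 10 (CREBBP, EP300, KAT2A, KAT2B and KAT7) and higher at none, with and without matched peak numbers, beside 8.39% and 25.8% of all genes (9.28% and 24.6% when matched). H3K27ac was higher at 6 of 9 with a peak and lower at none, beside 54.6%, and higher at 3 with matched peak numbers, beside 35.1%. H3K4me2 was higher at 2 (KAT6B and KAT8) and lower at 2 (EP300 and KAT6A), beside 39.6% and 3.91%. With matched peak numbers it was higher at 1 (KAT6B) and lower at 2, beside 31.2% and 7.73%.

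EP300 encodes p300, which acetylates H3K27. Its H3K27ac length was 1124 and 1532 bp in DMSO and 2252 and 1916 bp in Corin, with both Corin libraries above. H3K4me2 at EP300 went the other way, with 3004 and 2994 bp in DMSO and 2703 and 2663 bp in Corin. H3K4me3 was also shorter in Corin, with 3012 and 2755 bp in DMSO and 2700 and 2485 bp in Corin. The differences of means were 756 ± 374 bp, -316 ± 29.2 bp and -291 ± 237 bp (n = 2 and 2). Here and below, the value after ± is the square root of the summed squares of the 2 group SDs. The limma adjusted p were 0.283, 0.678 and 0.864. All 3 differences were the same with matched peak numbers; that of H3K4me3 was -183.5 bp without Corin replicate 2 and -162.5 bp without DMSO replicate 1. As the map of peaks around 4 starts shows, H3K4me2 peaks at EP300 left a gap over the start, where H3K27ac and H3K4me3 peaks lay.

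CREBBP, the paralogue of EP300, had no H3K27ac peak within 10 kb in any library. Its H3K4me2 values overlapped between treatments, at 2163 and 2139 bp in DMSO and 2510 and 2006 bp in Corin. H3K4me3 was 2036 and 2150 bp in DMSO and 1870 and 1562 bp in Corin, a difference of -377 ± 232 bp (limma adjusted p = 0.75), or -223 bp without Corin replicate 2. The paralogues thus differed in whether a peak of H3K27ac was called at all, at promoters of similar CpG number.

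KAT2B (PCAF), an acetyltransferase of the SAGA-type complexes, had no H3K27ac in DMSO and 230 and 413 bp in Corin, with overlapping libraries once peak numbers were matched. Its H3K4me3 was 1869 and 1636 bp in DMSO and 1336 and 1442 bp in Corin. KAT7 (HBO1) showed the same directions, with H3K27ac of 360 and 717 bp in DMSO and 860 and 1169 bp in Corin, and H3K4me3 of 792 and 721 bp against 472 and 360 bp. At KAT7 the H3K27ac difference was -224.5 bp with matched peak numbers, in place of 476 bp. KAT8 (MOF), which acetylates H4K16, had 311 and 711 bp of H3K27ac in DMSO and 2245 and 3156 bp in Corin, a 5.28-fold ratio of means. Part of that window lies nearer to the start of another gene, and the difference of 2189.5 bp became 1485 bp over the part nearer to KAT8 and 1144.5 bp with matched peak numbers. KAT6B (MORF) had the second-largest H3K4me2 difference with all libraries, with 1609 and 2567 bp in DMSO and 3995 and 2971 bp in Corin. That difference of 1395 bp was 883 bp without Corin replicate 1 and 916 bp without DMSO replicate 1.

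**Figure D3:**
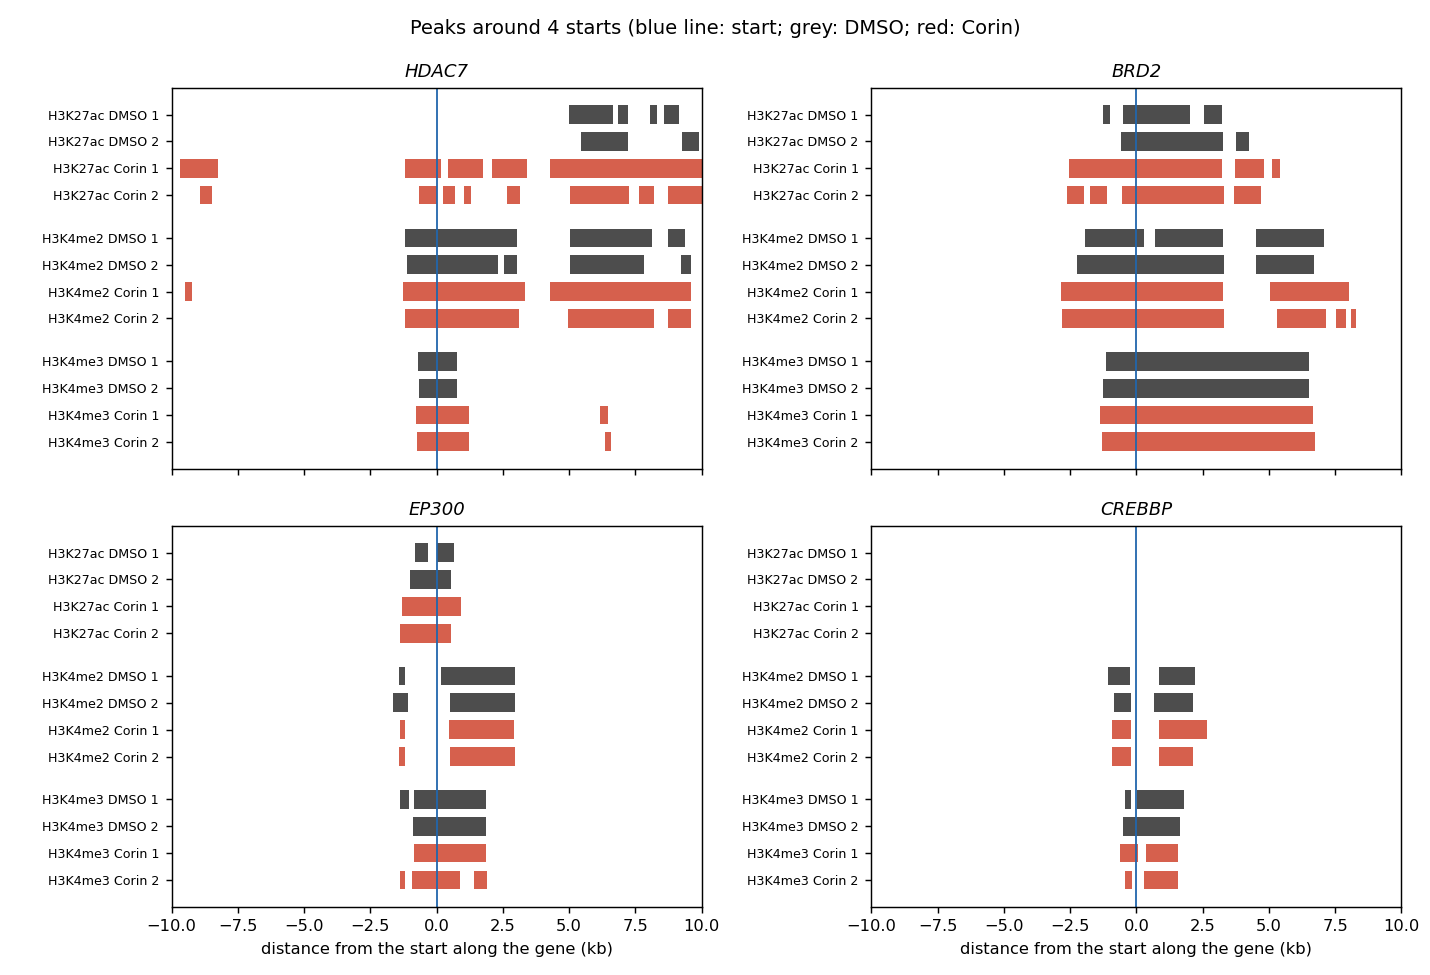
Peaks (bars; grey DMSO, red Corin) in each of the 12 lists (rows) around the starts of HDAC7, BRD2, EP300 and CREBBP, by distance from the start along the gene (kb, x axis; blue line at the start). H3K27ac bars over the HDAC7 start appear in the Corin rows only, and the CREBBP panel holds no H3K27ac bar.

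Classical deacetylase genes included the member with the largest H3K27ac and H3K4me2 differences when all libraries were used. HDAC7 encodes a class IIa deacetylase, which binds MEF2 factors and has little catalytic activity of its own. Its H3K27ac length was 2847 and 2414 bp in DMSO and 11234 and 6379 bp in Corin, a difference of 6176 ± 3447 bp and a 3.35-fold ratio of means (limma adjusted p = 0.133). Without Corin replicate 1 the difference was 3748.5 bp. H3K4me2 was 7987 and 7121 bp against 10226 and 8439 bp, and H3K4me3 1439 and 1423 bp against 2298 and 2167 bp. The H3K4me2 difference of 1778.5 bp was 885 bp without Corin replicate 1, where PRMT9 and BRD2 had larger ones. Within 1 kb of the start it was 0 bp. No library of one treatment overlapped the other for any of the 3 marks, and the H3K4me3 difference of 801.5 ± 93.3 bp had the smallest adjusted p of that mark among members (0.386).

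At HDAC7, 4 regions had H3K27ac in both Corin lists and in neither DMSO list. One, at chr12:47819733-47821115, spans the start and the promoter printed above, and covered 1383 and 673 bp in the Corin libraries. The others were at chr12:47816489-47817823 in an intron, chr12:47818161-47819646 overlapping an exon, and chr12:47828139-47829597 in an intron upstream of the canonical start. The HDAC7 start had H3K4me2 and H3K4me3 in every library of both treatments. A region of H3K4me3 at chr12:47813321-47813726, overlapping an exon, was also found in both Corin lists only. The outermost annotated start of HDAC7 lies 13229 bp from the canonical one; around it the H3K27ac difference was 950.5 bp and that of H3K4me3 0 bp.

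Differences at the other deacetylase genes were smaller. HDAC3, the deacetylase of nuclear receptor corepressor complexes, had H3K27ac of 975 and 1552 bp in DMSO and 3463 and 1758 bp in Corin, H3K4me2 of 4621 and 4846 bp against 5218 and 5068 bp, and H3K4me3 of 2600 and 2539 bp against 2389 and 2528 bp. Over the part of the window nearer to its own start, the H3K4me3 difference was -2.5 bp in place of -111 bp. HDAC8, a class I deacetylase outside the CoREST complex, was lightly marked, with H3K27ac of 0 and 315 bp in DMSO and 1175 and 0 bp in Corin, which overlap. In all, H3K27ac was higher at 4 of 9 classical deacetylase genes (HDAC3, HDAC4, HDAC7 and HDAC10), beside 54.6% of all genes, and with matched peak numbers it was higher at 3 and lower at 2, beside 35.1% and 3.48%. At HDAC3 the H3K27ac difference of 1347 bp became 674 bp with matched peak numbers, 494.5 bp without Corin replicate 1 and 2199.5 bp without Corin replicate 2. At HDAC10 the H3K27ac difference of 798.5 bp became -134.5 bp with matched peak numbers, 379 bp without DMSO replicate 1 and 1218 bp without DMSO replicate 2. H3K4me2 was higher at 3 (HDAC3, HDAC5 and HDAC7) and H3K4me3 at 1 of 8 (HDAC7), with 2 lower for H3K4me3 (HDAC3 and HDAC6), beside 39.6%, 25.8% and 8.39%.

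Sirtuins are NAD-dependent deacylases. H3K27ac was higher in both Corin libraries at 5 of 7 (SIRT1, SIRT2, SIRT3, SIRT6 and SIRT7), beside 54.6% of all genes, and at 2 of them with matched peak numbers (SIRT3 and SIRT7), beside 35.1%. At SIRT2 the difference of 500.5 bp was 19.5 bp, with overlapping libraries, over the part of the window nearer to its own start. SIRT7, a nucleolar enzyme, had 1577 and 4148 bp in DMSO and 7333 and 6521 bp in Corin. Its window also holds 2 other gene starts, and the difference of 4064.5 ± 1906 bp was 1609 bp over the part nearer to SIRT7. H3K4me2 at SIRT7 overlapped between treatments, at 11267 and 12117 bp against 11175 and 11507 bp.

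SIRT3, a mitochondrial enzyme, was with EP300 the only member with higher H3K27ac and lower H3K4me2 and H3K4me3, a combination found at 22 genes in all. H3K27ac was 0 and 444 bp in DMSO and 726 and 994 bp in Corin, but over the part of the window nearer to its own start the difference was 9 bp in place of 638 bp, and without DMSO replicate 1 it was 416 bp. H3K4me2 was 1824 and 2140 bp against 1598 and 1665 bp, and H3K4me3 2014 and 2056 bp against 1838 and 1833 bp. SIRT1, a nuclear deacetylase, had H3K27ac of 0 and 328 bp in DMSO and 595 and 483 bp in Corin, and H3K4me3 of 1413 and 1281 bp against 1252 and 1068 bp. Its H3K27ac difference of 375 bp was 77.5 bp with matched peak numbers and 211 bp without DMSO replicate 1.

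Lysine methyltransferases were grouped by name, and several of them act on H3K4, H3K9, H3K36 or H4K20. H3K27ac was higher in both Corin libraries at 12 of 21 and lower at none, a share close to the 54.6% of all genes. With matched peak numbers this fell to 8, beside 35.1%. H3K4me2 was higher at 4 (KMT5C, SETD2, SETD5 and SETDB2) and lower at none, beside 39.6% and 3.91%. The order of the H3K4me2 counts turned with matched peak numbers, with 2 higher and 3 lower beside 31.2% and 7.73% of all genes, and that of H3K4me3 too, with 3 higher and 4 lower beside 24.6% and 9.28%. H3K4me3 was higher at 5 (EHMT1, EHMT2, KMT5C, SETD1B and SETD6) and lower at 3 (KMT2C, KMT5B and SETD4) with all peaks, beside 25.8% and 8.39%.

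The H4K20 methyltransferases KMT5B and KMT5C differed in direction for H3K4me3. KMT5C had 2038 and 2028 bp in DMSO and 2444 and 2388 bp in Corin, a difference of 383 ± 40.2 bp. KMT5B had 1997 and 1974 bp in DMSO and 1796 and 1302 bp in Corin, a difference of -436.5 ± 350 bp that was -683.5 bp without Corin replicate 1 and -189.5 bp without Corin replicate 2. For H3K27ac both were higher in Corin: KMT5C had 1002 and 1404 bp against 2611 and 4776 bp, and KMT5B 0 and 349 bp against 1105 and 698 bp. With matched peak numbers the H3K27ac difference at KMT5B was 66.5 bp in place of 727 bp, and that at KMT5C 1626 bp in place of 2490.5 bp. The KMT5C value was 1385 bp over the part of the window nearer to its own start and 1408 bp without Corin replicate 2. The H3K4me2 difference of 567 bp at KMT5C included a region found only in the Corin lists at chr19:55331558-55332257, which overlaps TMEM150B, and was -64.5 bp over the part nearer to KMT5C.

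Among genes of the KMT2 family, H3K4me3 lengths overlapped between treatments at KMT2A, KMT2B, KMT2D and KMT2E. KMT2A (MLL1) had 3235 and 3382 bp in DMSO and 3251 and 3418 bp in Corin, while its H3K27ac was 0 and 719 bp against 1342 and 2089 bp. KMT2D (MLL4), known for H3K4 monomethylation at enhancers, had H3K27ac of 3617 and 4897 bp against 4646 and 5360 bp, which overlap. SETD1B had higher H3K27ac, with 5862 and 5246 bp against 7605 and 6486 bp. Its H3K4me3 was 6522 and 6217 bp against 6561 and 6644 bp, a difference of 233 bp that was -276 bp with matched peak numbers, 385.5 bp without DMSO replicate 1 and 80.5 bp without DMSO replicate 2.

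Among the H3K9 methyltransferases, EHMT2 (G9a) had the largest H3K4me3 difference of any member by length, with 2733 and 3253 bp in DMSO and 3642 and 4006 bp in Corin. The difference of 831 ± 449 bp was 396.5 bp over the part of the window nearer to EHMT2. SETDB1 values overlapped for all 3 marks, with H3K27ac of 850 and 409 bp in DMSO and 824 and 564 bp in Corin. SETD7, which monomethylates H3K4 and other proteins, had overlapping H3K4me2 and H3K4me3. Its H3K27ac was 3007 and 2904 bp against 5449 and 4883 bp, a difference of 2210.5 ± 407 bp. Around its outermost annotated start, 50480 bp away, H3K27ac was 0 bp in each list. SETD5 had H3K4me2 of 4520 and 3946 bp against 5869 and 4763 bp, a difference of 1083 bp that was -103.5 bp within 1 kb of the start, 530 bp without Corin replicate 1 and 1636 bp without Corin replicate 2; with matched peak numbers its libraries overlapped.

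Arginine methyltransferases had H3K27ac higher at 3 of 7 with a peak (PRMT1, PRMT5 and PRMT7), beside 54.6% of all genes, and at 2, with 1 lower, with matched peak numbers, beside 35.1% and 3.48%. PRMT1, the main asymmetric dimethylating enzyme, had 0 and 1858 bp in DMSO and 2667 and 2991 bp in Corin, with overlapping H3K4me2 and H3K4me3. Its H3K27ac libraries overlapped with matched peak numbers. PRMT5, which dimethylates arginine symmetrically, had H3K27ac of 0 and 346 bp against 964 and 1123 bp, a difference of 870.5 bp that was 491.5 bp with matched peak numbers. H3K4me3 at PRMT5 was 926 and 1106 bp in DMSO and 1788 and 1627 bp in Corin, a difference of 691.5 ± 171 bp. That difference included a region at chr14:22930154-22930805, upstream of the start, with H3K4me3 in both Corin lists and neither DMSO list. PRMT9 had H3K4me2 of 1533 and 1599 bp against 2178 and 2574 bp, a difference of 810 bp that was 370 bp with matched peak numbers, and lower H3K4me3, with 1263 and 1313 bp against 1260 and 991 bp.

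Lysine demethylases had H3K27ac higher at 7 of 16 with a peak, H3K4me2 higher at 6 and lower at 1 (KDM3B), and H3K4me3 higher at 3 (KDM2A, KDM4C and KDM4D) and lower at 2 (KDM2B and KDM3B). Over all genes with a peak, 54.6% had higher H3K27ac. H3K4me2 was higher at 39.6% and lower at 3.91% of such genes, and H3K4me3 higher at 25.8% and lower at 8.39%. Matched peak numbers gave these demethylases 5 higher for H3K27ac, 5 higher and 1 lower for H3K4me2, and 3 of each for H3K4me3. The shares of all genes were then 35.1%, 31.2% and 7.73%, and 24.6% and 9.28%. KDM1B (LSD2), the paralogue of the targeted KDM1A, had no H3K27ac in DMSO and 283 and 498 bp in Corin, with overlapping values for the other marks. The H3K27ac libraries of KDM1B overlapped with matched peak numbers, as did those of KDM5B. KDM2A, an H3K36 demethylase, had H3K27ac of 1878 and 1234 bp against 4615 and 2829 bp and H3K4me3 of 3529 and 3038 bp against 4088 and 3917 bp. Its paralogue KDM2B had H3K27ac of 383 and 343 bp against 773 and 743 bp, but H3K4me3 of 1148 and 1359 bp against 1147 and 892 bp. The paralogues shared the direction of H3K27ac and not that of H3K4me3, but at KDM2B the nearest H3K4me3 libraries were 1148 and 1147 bp. Its H3K4me3 difference of -234 bp had a limma adjusted p of 0.872. That difference was -361.5 bp without Corin replicate 1 and -106.5 bp without Corin replicate 2.

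The H3K27 demethylases KDM6A (UTX) and KDM6B (JMJD3) oppose H3K27 methylation. KDM6A had H3K27ac of 1382 and 1200 bp in DMSO and 3117 and 1751 bp in Corin. KDM6B had 1230 and 2573 bp against 4441 and 2116 bp, which overlap. H3K4me2 was higher at both with all peaks, but at KDM6A the difference of 317.5 bp was -662 bp with matched peak numbers and 151.5 bp without Corin replicate 2, and at KDM6B the difference of 427 bp was -66 bp within 5 kb and 140.5 bp without Corin replicate 1. KDM5B, an H3K4 demethylase, had H3K27ac of 2013 and 1186 bp against 2354 and 2227 bp and H3K4me2 of 4537 and 5296 bp against 6018 and 5306 bp, while its paralogue KDM5A had no peak. With all peaks, KDM3B, an H3K9 demethylase, had the largest H3K4me2 difference downwards among the 4 members whose libraries did not overlap in that direction. It had 1841 and 2141 bp in DMSO and 1382 and 1698 bp in Corin. This difference of -451 bp was -293 bp without Corin replicate 1, smaller than at EP300 and SIRT3, and 199.5 bp over the gene body. With matched peak numbers it was also -451 bp, but that at SIRT3 was -740 bp.

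Bromodomain genes, which encode readers of acetylated lysine, had H3K27ac higher at 2 of 7 with a peak, BRD2 among them, and H3K4me2 higher at 4, with BRD2, BRD3 and BRD9 among them, beside 54.6% and 39.6% of all genes. H3K4me3 was higher at 1 of 7 (BRD2) and lower at 2 (BRD3 and BRD7), beside 25.8% and 8.39%. BRD2 had H3K27ac of 3479 and 4317 bp in DMSO and 7182 and 6106 bp in Corin, H3K4me2 of 7378 and 7727 bp against 9078 and 8529 bp, and H3K4me3 of 7686 and 7767 bp against 8036 and 8038 bp. The differences were 2746 ± 964 bp, 1251 ± 460 bp and 310.5 ± 57.3 bp. That of H3K27ac was 1744.5 bp with matched peak numbers, and within 5 kb that of H3K4me2 was 454.5 bp and that of H3K4me3 131.5 bp. Within 1 kb of the start the H3K27ac difference at BRD2 was 231 bp, so most of the added length lay further out.

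Of the 7 genes that met the name pattern only, 2 of 6 with a peak had higher H3K27ac (KATNAL1 among them) and 3 of 7 higher H3K4me2 (BRD3OS and KATNIP among them), beside 54.6% and 39.6% of all genes, and none had a non-overlapping H3K4me3 value. Leaving out the katanin genes gave 39 of 76 members with higher H3K27ac (51.3%, beside 54.6%). The H3K4me2 counts were then 23 higher and 4 lower of 78 (beside 39.6% and 3.91%), and those of H3K4me3 12 higher and 17 lower of 77 (beside 25.8% and 8.39%). Another gene's start lies within the window of 22 members. Without these, 29 of 60 members were higher for H3K27ac, beside 52.8% of all genes with no other start in the window. For H3K4me2, 18 of 62 were higher and 3 lower, beside 40.6% and 3.71% of such genes. For H3K4me3, 9 of 61 were higher and 13 lower, beside 24.3% and 8.99%.

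The counts differed with distance from the start. Within 1 kb, H3K27ac was higher in both Corin libraries at 40 of 82 members and lower at none, beside 45% and 0.888% of all genes with a peak there. H3K4me2 within 1 kb was higher at 8 and lower at 11 of 84, beside 17.9% and 11.5%, and the median difference over all members was -58.5 bp. Among genes with H3K4me3 at the start in all 4 lists, lower values were likewise slightly more frequent than higher ones, at 13.9% and 13.1%, with a median of 0 bp. Between 1 and 5 kb from the start, H3K4me2 was higher at 34 members and lower at 2, with a median difference of 137.5 bp. These were 42% and 2.47% of the 81 members with a peak in that band, close to the 45.4% and 2.54% of all such genes, and the median was 167 bp over genes with H3K4me3 at the start in all 4 lists. The mean H3K4me2 length per member in that band was 1298 and 1294 bp in DMSO and 1587 and 1366 bp in Corin. Within 1 kb it was 1034 and 1270 bp in DMSO and 1143 and 1065 bp in Corin, which overlap. H3K4me3 within 1 kb was higher at 7 and lower at 13 members, beside 18.9% and 9.47% of all genes with a peak there. Between 1 and 5 kb that order turned, with 14 of 63 higher and 9 lower (22.2% and 14.3%, beside 24.1% and 7.22%). H3K27ac in that band was higher at 18 of 47 and lower at 3 (38.3% and 6.38%, beside 40.7% and 1.29%).

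**Figure D4:**
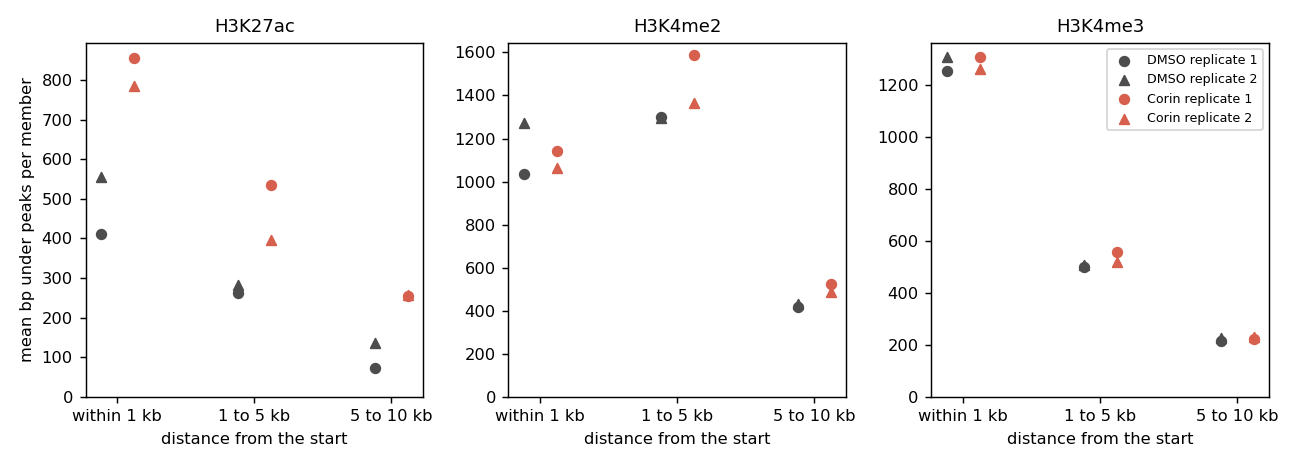
Mean length under peaks per member (bp, y axis) in 3 bands of distance from the start (x axis), one panel per mark; each point is the mean over the 89 members in 1 library. H3K27ac points of Corin lie above those of DMSO in every band, while H3K4me2 points overlap within 1 kb and separate between 1 and 5 kb (1298 and 1294 bp in DMSO, 1587 and 1366 bp in Corin).

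New regions, present in both Corin lists and neither DMSO list, made up 17 of 176 H3K27ac regions in member windows (9.66%), at 12 members, against 10.2% of the H3K27ac regions within 10 kb of any protein-coding start. One region was found in both DMSO lists only, at SETD4 (chr21:36056793-36057163, overlapping an exon). This was 0.568% of member regions, against 0.128% of regions within 10 kb of any start. For H3K4me2, 5 of 192 member regions were found in both Corin lists only (2.60%, against 5.26% of regions within 10 kb of any start). None was found in both DMSO lists only, against 0.165%. For H3K4me3, 2 of 114 were found in both Corin lists only (1.75%, against 1.17%), at HDAC7 and PRMT5. At the start itself, 9 members had H3K27ac within 1 kb in both Corin lists and no DMSO list: HDAC7, KAT2B, KATNAL1, KDM1B, KDM2B, KDM3A, SETD6, SIRT6 and SIRT7. This was 11% of the 82 members with H3K27ac there in any list, beside 7.05% of all such genes. No member had the reverse, beside 0.035% of all genes.

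The 3 marks did not share one direction at the members. BRD2, HDAC7, KMT5C and PRMT7 were higher in both Corin libraries for all 3 marks, a share of 4.49% beside 4.38% of all genes. The first 3 of them were so with matched peak numbers too (3.37%, beside 2.23%). BRD2 and HDAC7 were so over the part of the window nearer to their own starts (2.25%, beside 3.31%). H3K27ac and H3K4me3 were both higher at 9 members, while H3K27ac was higher and H3K4me3 lower at 8 (EP300, HDAC3, KAT2B, KAT7, KDM2B, KMT5B, SIRT1 and SIRT3). These were 11.1% and 9.88% of the 81 members with peaks of both marks, beside 16.8% and 3.86% of all such genes; the difference was not tested. Across the 81 members with peaks of both marks, the differences in H3K27ac and H3K4me3 had a Pearson r of 0.554 and a Spearman rho of 0.365, beside 0.283 and 0.186 over all genes. For H3K27ac with H3K4me2 the values were 0.305 and 0.0371 (82 members), beside 0.358 and 0.273. For H3K4me2 with H3K4me3 they were 0.295 and 0.207 (83 members), beside 0.195 and 0.145. These are descriptions across genes, which share the same libraries and list lengths.

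**Figure D5:**
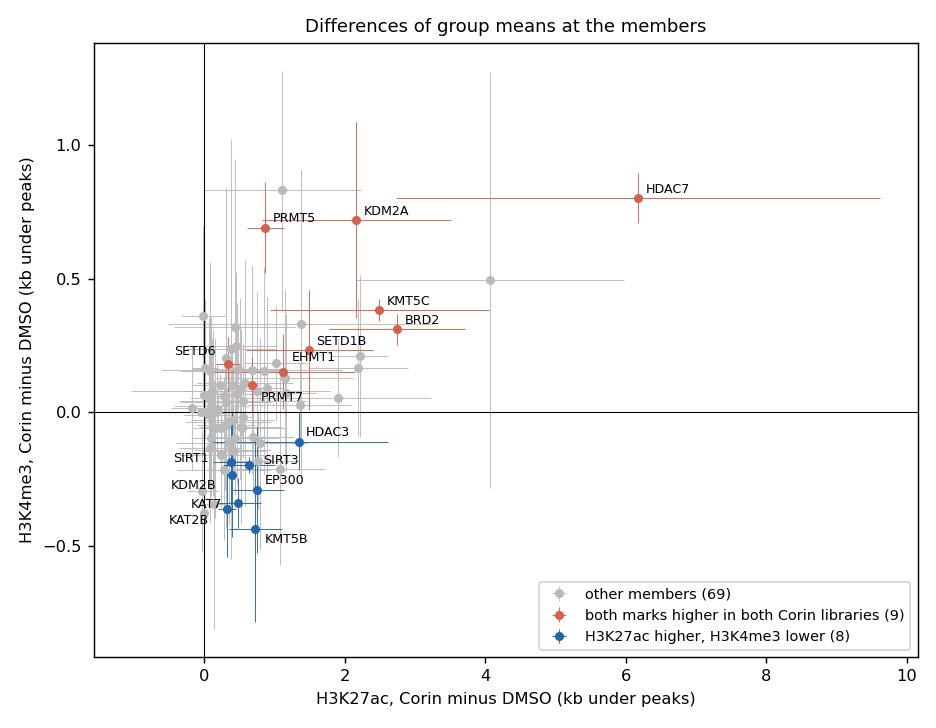
Difference in H3K27ac (x axis) against difference in H3K4me3 (y axis), Corin minus DMSO, in kb under peaks, for 86 of the 89 members. Points are differences of group means (n = 2 and 2). Bars are the square root of the summed squares of the 2 group SDs. Red points, with HDAC7 at 6176 and 801.5 bp, had both marks higher in both Corin libraries. The 8 blue points had H3K27ac higher and H3K4me3 lower.

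Genes of the same machinery outside the name pattern were taken from lists chosen by function. Of 57 related enzymes and readers (such as EZH2, DOT1L, NSD2 and SMARCA4), H3K27ac was higher at 23 and lower at none of 50 with a peak, H3K4me2 higher at 14 and lower at 1 of 54, and H3K4me3 higher at 12 and lower at none of 53. The shares of all genes were 54.6% and 0.591%, 39.6% and 3.91%, and 25.8% and 8.39%. Of 30 partner subunits (such as MEN1 and WDR5), the counts were 20 and 1 of 28, 7 and 3 of 30, and 6 and 2 of 30. Neither list had more genes with lower than with higher H3K4me3, unlike the 89 members; that difference was not tested. The inhibited enzymes' own genes had H3K4me3 at the start in all 4 lists. KDM1A had lower H3K4me3, at 1952 and 1871 bp in DMSO and 1808 and 1756 bp in Corin. HDAC1 had higher H3K27ac, at 769 and 317 bp against 1223 and 1187 bp, and HDAC2 at 2054 and 1987 bp against 2258 and 2282 bp, with lower H3K4me2 at HDAC2 (3385 and 3643 bp against 3327 and 2939 bp).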

How the data were processed

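CUT&RUN peak lists from 12 Molm-13 libraries were used, 2 per mark and treatment. Reads were processed with Trim Galore, Bowtie2, Picard and MACS2 on GRCh38 (hg38), per the submitters' processing notes, without versions or settings. Each deposited list gives positions and a score per peak; the score is the authors' value, at least 50 in every list, and its definition is not given in the sources used here. It served only to rank peaks for the matched peak numbers and for a stricter threshold of 100. How the lists were called (per library, with which control) is not given there either; each library has its own list.

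From these lists the bp under peaks within 10 kb of each start were computed for 20007 protein-coding genes (GENCODE release 44) with Python 3.11.15, numpy 2.4.6 and pandas 2.3.3. A gene's start was that of its Ensembl canonical transcript, a choice made after the data were seen, because the outermost annotated start lies more than 10 kb from it at 7 members (HDAC7, HDAC9, KDM4C, KMT2E, PRMT8, SETD4 and SETD7); the outermost start was an added alternative, as was the part of the window nearer to the gene's own start. limma 3.58.1 (trend) was fitted per mark over all genes with a peak in the window in at least 1 of 4 lists, with Benjamini-Hochberg adjustment at 0.05, and tested on simulated data with known differences.

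Replicate numbers were not treated as pairs, since the labels do not say what they share. Named members are those with the 5 largest higher and 3 largest lower differences per mark among non-overlapping ones, the 3 with most length in DMSO per mark, those with no peak, and 15 picked for their roles; a few genes are counted but not reported here. The members and lists were chosen with earlier results of these data known. Alternatives were matched peak numbers, the stricter score, windows of 5 and 1 kb, the gene body, log2 of bp plus 500, no filter, leaving out each library, a replicate block, and leaving out the katanin genes or members with a shared window.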

Additional observations from a re-analysis of the deposited data

Results flagged for a closer look

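In 11 members, 2 marks differed in direction: both Corin libraries lay above both DMSO libraries for one mark and below them for another. These were 12.4% of members, beside 4.06% of all genes. The difference between marks was not tested. Values are the distance between the 2 differences (Corin minus DMSO), in bp. For H3K27ac above and H3K4me3 below, this was 1458 at HDAC3, 1163.5 at KMT5B, 1047 at EP300, 837.5 at SIRT3, 816.5 at KAT7, 685 at KAT2B, 629 at KDM2B and 562 at SIRT1 (9.88% of members with peaks of both, beside 3.86% of such genes). For H3K27ac above and H3K4me2 below, it was 1216 at KAT6A, 1072 at EP300 and 988.5 at SIRT3 (3.66%, beside 1.94%). For H3K4me2 above and H3K4me3 below, it was 972.5 at PRMT9, 592 at BRD3 and 520.5 at HDAC3 (3.61%, beside 2.5%). With matched peak numbers 9 of the 14 pairs were still opposite; KAT2B, KAT6A, KAT7, KMT5B and SIRT1 were not. Over the part of the window nearer to the gene's own start 10 of the 14 were opposite, and the 4 pairs at HDAC3 and SIRT3 were not. So 5 were opposite under both settings (those at BRD3, EP300, KDM2B and PRMT9). The lower H3K4me3 rested on a few bp at BRD3, KDM2B and PRMT9. Their nearest DMSO and Corin libraries were 2604 and 2603 bp, 1148 and 1147 bp, and 1263 and 1260 bp.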

How the results depend on the processing

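Peak lists of unequal length, 2 libraries a group and the unknown depth limit every count. Of 946 values for named members under the alternatives, 857 stayed within 1 SD and 77 moved further. The other 12 changed sign at members whose libraries did not overlap with all peaks. Sign changes at members with overlapping libraries were counted by distance alone. An example was EHMT2 H3K4me2, with 262 bp in the main setting and -262.5 bp within 1 kb. With matched peak numbers, H3K27ac was higher at 25 members in place of 41 and lower at 3 in place of 0, its median difference was 197 bp in place of 428.5 bp, and H3K4me2 was lower at 9 in place of 4. A score of at least 100 gave 1 member with lower H3K27ac, a setting for which the share over all genes was not computed. Within 1 kb, H3K4me2 was higher at 8 members in place of 25 and lower at 11, with a median of -58.5 bp in place of 188 bp, and H3K4me3 was higher at 7 in place of 12. Requiring 50% cover left 11, 43 and 52 members with H3K27ac, H3K4me2 and H3K4me3 at the start in all 4 lists, in place of 45, 80 and 82. The cause of these shifts was not tested, except that the 50% rule is stricter by construction.

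Leaving out 1 library at a time gave 46 to 63 members with higher H3K27ac and 1 to 5 with lower, 28 to 52 with higher H3K4me2 and 6 to 26 with lower, and 21 to 36 with higher H3K4me3 and 23 to 36 with lower. For H3K27ac the higher counts were 56.1% to 81.8% of members, beside 63.2% to 81% of all genes. Lower H3K27ac was at 1.3% to 6.17%, beside 1.97% to 7.15%. Higher H3K4me2 was at 33.3% to 61.9%, beside 47.1% to 66.3%, and lower H3K4me2 reached 31% without DMSO replicate 1, beside 21.4%. Higher H3K4me3 was at 25.3% to 43.4%, beside 37.1% to 49.7%, and lower H3K4me3 at 27.7% to 43.4%, beside 18.5% to 26.6%. Leaving out 1 library moved the difference by over 1.5 times at 20 of 41 called members for H3K27ac, 18 of 29 for H3K4me2 and 19 of 29 for H3K4me3. The same counts were not made over all genes, so these are not particular to the members. The H3K4me3 median, 22 bp over all 89 members, ranged from -10 bp (without DMSO replicate 1) to 65.5 bp, and was -6 bp without Corin replicate 1. In limma, H3K27ac calls were 0 to 11 on leaving out a library (11 without Corin replicate 1 and 8 without Corin replicate 2) and 1 with no filter on low values (all genes: 1088, 1305 and 23).

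Same-numbered Corin and DMSO libraries deviated together with correlations of 0.294, 0.314 and 0.234 for H3K27ac, H3K4me2 and H3K4me3, which with 2 pairs is a hint only. With the replicate block limma called 11 members for H3K27ac (HDAC7, KAT8 and SIRT7 among them; 1460 genes in all, 13.7%), none for H3K4me2 (660 genes in all, in place of 20) and none for H3K4me3. Counting same-numbered pairs that moved one way (replicate block) gave 51 members with higher and 1 with lower H3K27ac (beside 65.9% and 1.51% of all genes), 34 and 8 for H3K4me2 (49.9% and 7.52%), and 20 and 22 for H3K4me3 (37.3% and 15.6%).

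Among the members named by rule, signs changed as follows where the libraries had not overlapped with all peaks. H3K4me2 within 1 kb was -103.5 bp at SETD5, -66 bp at KDM6B and -132 bp at KMT5C; within 5 kb it was -66 bp at KDM6B and -64.5 bp at KMT5C. KMT5C was also at -24 bp over the gene body and -64.5 bp nearer to its own start, and KDM3B at 199.5 bp over the gene body. KDM6A H3K4me2 was -662 bp with matched peak numbers and -188 bp with the stricter score, and SETD1B H3K4me3 was -276 bp and -99 bp.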
